A study of Sus scrofa with 15 samples.

Results

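The proteasome genes and ubiquitin-conjugating genes of pig granulosa cells were followed over 7 days of culture. The members were the genes whose only symbol in the array annotation began with PSMA to PSMG or with UBE2 and a letter, apart from UBE2C, which the rule leaves out. They numbered 63 of the 6765 genes with 1 symbol, 40 of them proteasome genes and 23 genes of the UBE2 family. Each gene was read from 1 probe set, the one with the highest mean over the 15 arrays where there were several. Granulosa cells line the ovarian follicle and make estradiol. Total RNA was taken from porcine follicular granulosa cells on days 0, 1, 2, 4 and 7 of culture and hybridised to Affymetrix porcine genome arrays. Each of the 5 days had 3 arrays, which makes 15. The cells are described as losing their differentiated state in culture, where they grew to semiconfluence, and the labels name those of day 7 DFOG. No agent, genotype or animal age was given in the labels, so the days differ, as labelled, in time of culture. Comparisons with day 0 also hold the start of culture itself, which cannot be told apart from time.

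The proteasome is the barrel-shaped protease that degrades proteins marked with ubiquitin. Its core, the 20S particle, stacks outer alpha rings on inner beta rings that carry the cutting sites, and its cap, the 19S particle, recognises ubiquitin and uses ATPases to unfold the substrate. Immune signals exchange the catalytic beta subunits for the immunoproteasome forms, and separate activators can replace the cap. Ubiquitin-conjugating (E2) enzymes receive ubiquitin from an activating (E1) enzyme and pass it, together with a ligase (E3), to the substrate. In ovarian follicles this system takes part in the turnover of cell cycle and signalling proteins.

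All values are log2 intensities, and changes are differences of day means on the log2 scale with their standard error (SE) from limma. Precision is set by the small number of arrays. The labels call the replicates biological but do not say whether they were separate animals or cultures. A p-value here thus measures the spread between these arrays, which need not be the spread between animals. Levels of different genes are not set against each other, since each probe set binds its target differently. Of the 63 genes, 62 had a 15-array mean above the highest array median of 6.55. PSMB8 was the exception, with a mean of 5.62, still above the lower quartile of every array (4.41 to 4.68). Of 9 granulosa markers, 6 fell on day 1 and 5 on each of days 2, 4 and 7 against day 0, while 1 rose on day 2. The median change of the 9 on day 7 was -2.465. HSD17B1, an estradiol-forming enzyme, fell further than that median and averaged 5.63 ± 0.42 on day 7, against 13.52 ± 0.25 on day 0 (SD, n = 3 each). Some features of the arrays moved with the days or replicates. The difference between the 3′ and 5′ actin control probe sets, often read as a measure of RNA integrity, ran between 0.97 and 1.68 on day 0. It was between 0.17 and 1.01 on day 1, between 0.02 and 0.68 on day 2, and 0.07, 2.12 and 0.63 on the 3 arrays of day 4. On day 7 it was between 0.19 and 0.59. For dap, a control of bacterial sequence, the same difference was 1.72 to 1.77 on day 0. It was 3.52 on day 4 replicate 2, the array with 2.12 for actin, and between 1.01 and 1.63 on the remaining arrays. Whether these differences reflect RNA integrity was not tested. The replicate 1 arrays of all 5 days stood apart on principal component 3, at 29.4 to 48.1, with the other 10 arrays at -41.4 to -5.78. On all 5 days replicate 1 also had the lowest actin difference of its day. The same held for the gapdh control, at 0.10 to 0.50 on replicate 1. For dap it held on days 2, 4 and 7 only. The part of these differences in the results below was not tested. In a whole culture, fewer cells of a type and less RNA per cell cannot be told apart.

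Most genes of this system were not called, and those called over the time course were 2 immunoproteasome subunits, 2 nuclear activators, 1 assembly chaperone and 5 genes of the UBE2 family. A gene was called when its adjusted p, from limma with Benjamini-Hochberg adjustment over all 23999 probe sets, was under 0.05 and its change was 1 or more in either direction on the log2 scale. On day 1 against day 0, 4 of 63 genes were called, 3 higher and 1 lower, which is 6.35% of them, where 12.5% of all probe sets and 15.8% of the named genes were called (6.47% of probe sets higher and 6.03% lower). On day 2 against day 0, 7 were called, 4 higher and 3 lower, where 13.8% of all probe sets were (7.68% higher and 6.09% lower). On day 4 against day 0, 7 were called, 5 higher and 2 lower, where 15.9% of all probe sets were (9.29% higher and 6.59% lower). On day 7 against day 0, 8 were called, 6 higher and 2 lower, where 16.6% of all probe sets were (9.36% higher and 7.28% lower). In each of these 4 comparisons, which share the 3 arrays of day 0, the share of called members was below the background share. Steps between neighbouring days held few calls. UBE2QL1 alone was called on day 2 against day 1 (1 of 63, with 3.04% of all probe sets called), and UBE2T alone on day 4 against day 2 (1 of 63, with 2.53% called). On day 7 against day 4 the limma test called 0 of 63, with 0.0583% of all probe sets called, and 3 genes had an unadjusted p under 0.05 (4.63% of all probe sets). Over the whole time course, the F test with a range of day means of at least 1 called 10 of 63 genes, where 23.6% of all probe sets were called. By the adjusted p alone, 2 of 63 passed on day 2 against day 1 (6.09% of all probe sets), 2 on day 4 against day 2 (4.18%), 0 on day 7 against day 4 (0.0625%) and 23 by the F test (35.9%).

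With no minimum size, the changes of the 63 genes, called ones included, leaned one way. The median change of the 63 genes was 0.32 on day 1, 0.37 on day 2, 0.35 on day 4 and 0.37 on day 7 against day 0, with medians of all probe sets of -0.00, -0.01, -0.06 and -0.05. Day 0 had the lowest mean of the 5 days in 45 of 63 genes (71.4%), against 35.6% of the named genes. By the adjusted p alone, 20, 22, 27 and 24 of the 63 genes passed on days 1, 2, 4 and 7 against day 0, which is 31.7%, 34.9%, 42.9% and 38.1% of them. By the same rule 25.1%, 26%, 30.7% and 31.3% of all probe sets and 33.2%, 33.7%, 38.1% and 38.8% of the named genes passed. Without day 0 replicate 3, 12 higher and 1 lower passed on day 1 and 13 higher and 3 lower on day 4. With only the 6 arrays compared, 10 higher and 3 lower passed on day 2, and with the replicate number as a block 30 higher and 4 lower. The 3 arrays of the later day did not overlap the 3 of day 0 in 33, 36, 32 and 39 genes in the same order of days, where 37%, 37.3%, 42.4% and 46.5% of all probe sets and 46.2%, 45.7%, 50.1% and 55.2% of the named genes did not overlap. The lean depends on the scaling. After a second quantile normalization 16 genes were higher and 1 lower by the adjusted p on day 1, 12 and 5 on day 2, 13 and 6 on day 4, and 12 and 7 on day 7, against 19 and 1, 18 and 4, 24 and 3, and 21 and 3 as deposited. The medians of the 63 genes were then 0.25, 0.18, 0.13 and 0.15, and the share of genes with a positive change on day 7 was 68.3% with that normalization and 77.8% without it.

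**Figure D1:**
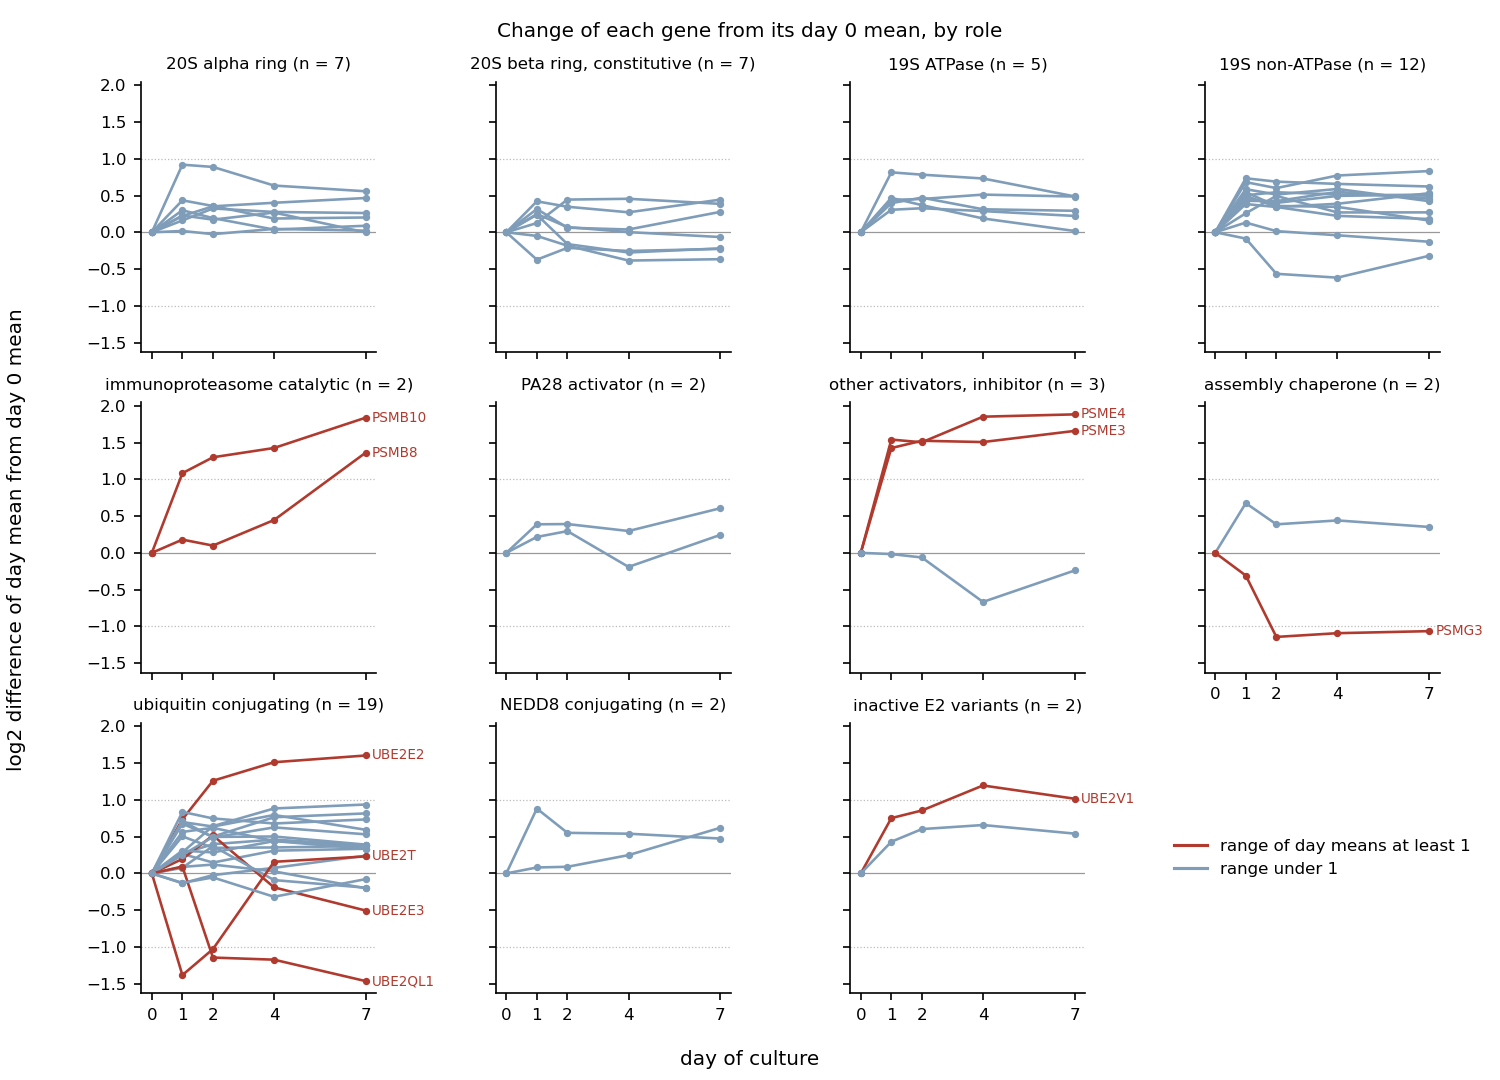
Each line is 1 gene and shows the log2 difference of its mean of 3 arrays from its day 0 mean (vertical axis) on days 0, 1, 2, 4 and 7 of culture (horizontal axis), in panels by role. Red lines are the 10 genes whose day means span at least 1 and blue lines the rest. The core and cap panels hold no red line.

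The 31 genes named as core and cap subunits include PSMD5 and PSMD10, which help to assemble the cap, and leave out the immunoproteasome forms. All 31 stayed within a narrow band. None was called in any of the 7 comparisons or by the F test with limma, although 14, 16, 12 and 12 of them had an unadjusted p under 0.05 on days 1, 2, 4 and 7 against day 0. That is 45.2%, 51.6%, 38.7% and 38.7% of them, where 34.1%, 35.5%, 40.2% and 40.1% of all probe sets had such a p. Their day means spanned 0.07 (PSMA7) to 0.92 (PSMA5), with a median span of 0.47, and 58.1% spanned under 0.5, against 35.1% of the named genes. By the adjusted p alone, 8 were higher on day 1, 6 higher and 1 lower on day 2, 8 higher and 1 lower on day 4, and 8 higher on day 7, all against day 0. Of all probe sets, 13.6% and 11.4% were higher and lower by that rule on day 1, 14.6% and 11.5% on day 2, 16.7% and 14% on day 4 and 16.4% and 14.9% on day 7. With the replicate number as a block the counts were 15 higher and 1 lower, 14 and 1, 12 and 2, and 11 and 1. Without day 0 replicate 3 they were 3 and 0, 3 and 1, 3 and 1, and 2 and 0. On day 1 they were 4 and 0 without day 1 replicate 2. On day 7 they were 4 and 0 without day 0 replicate 2, and 3 and 0, 5 and 0, and 4 and 0 without replicate 1, 2 or 3 of day 7. With only the 6 arrays compared they were 4 and 0 on day 1 and 3 and 0 on day 2, and with replicates 2 and 3 only 15 and 1 on day 1 and 12 and 1 on day 7. After a second quantile normalization they were 6 and 0, 3 and 2, 3 and 3, and 2 and 4, and the median change on day 7 was 0.03, against 0.27 as deposited, so that no direction holds for this group on days 4 and 7.

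The genes of this group that passed the adjusted p on all 4 later days were PSMA5, PSMD1, PSMD2, PSMD5 and PSMD14. The second probe set of PSMD1 passed on day 1 and had adjusted p = 0.106, 0.18 and 0.282 on days 2, 4 and 7. PSMD2, a scaffold of the cap that binds ubiquitin carriers, read 11.29, 11.30 and 11.39 on day 1, against 10.65, 10.60 and 10.52 on day 0. Its change was 0.73 ± 0.12 on day 1 (SE, adjusted p = 0.000409) and 0.62 ± 0.12 on day 7 (adjusted p = 0.00106). It is the only one of the 5 that also passed on all 4 days after the second quantile normalization, with changes of 0.63, 0.49, 0.43 and 0.39. PSMA5, an alpha ring subunit, had the largest change of the group, 0.92 ± 0.20 on day 1 (adjusted p = 0.0032) and 0.56 ± 0.20 on day 7 (adjusted p = 0.0446). PSMC6, an ATPase of the cap, had a change of 0.82 ± 0.18 on day 1 (adjusted p = 0.00448) and a difference of 0.49 ± 0.18 on day 7 (adjusted p = 0.0581). PSMD14, the enzyme that removes ubiquitin chains at the cap, changed by 0.43 ± 0.15 on day 1 and 0.46 ± 0.15 on day 7 (adjusted p = 0.0463 and 0.028).

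PSMD5 and PSMD10 help to assemble the base of the cap and are not part of the finished particle, and their values went opposite ways. PSMD5 changed by 0.83 ± 0.19 on day 7 against day 0 (adjusted p = 0.00336). PSMD10, also known as gankyrin, read 9.21, 8.89 and 9.06 on day 4, against 9.93, 9.57 and 9.52 on day 0, a change of -0.62 ± 0.19 (adjusted p = 0.0222). All 3 of its day 4 arrays lay below those of day 0, and its change on day 7 was -0.32 ± 0.19 (adjusted p = 0.226). Neither reached a log2 change of 1.

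By ring and cap, the 5 measured ATPases were all lowest on day 0, as were 5 of 7 alpha subunits. So were 10 of 12 other cap genes, with PSMD5 and PSMD10 counted among the 12. These counts rest on the chosen probe sets. The other probe sets of PSMC2, an ATPase, were not lowest on day 0. They changed by -0.15 and -0.09 on day 7 (adjusted p = 0.48 and 0.767). The dimmest probe set of PSMD11 changed by -0.26 ± 0.73 on day 4 (adjusted p = 0.827). Of the 7 constitutive beta subunits 3 were lowest on day 0, where 35.6% of the named genes were, and the difference between these groups was not tested. The changes of the beta subunits on day 7 against day 0 ran from -0.37 (PSMB4) to 0.44 (PSMB3), and only PSMB1 passed the adjusted p on any day, at 0.46 ± 0.16 on day 4 (adjusted p = 0.0451).

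**Figure D2:**
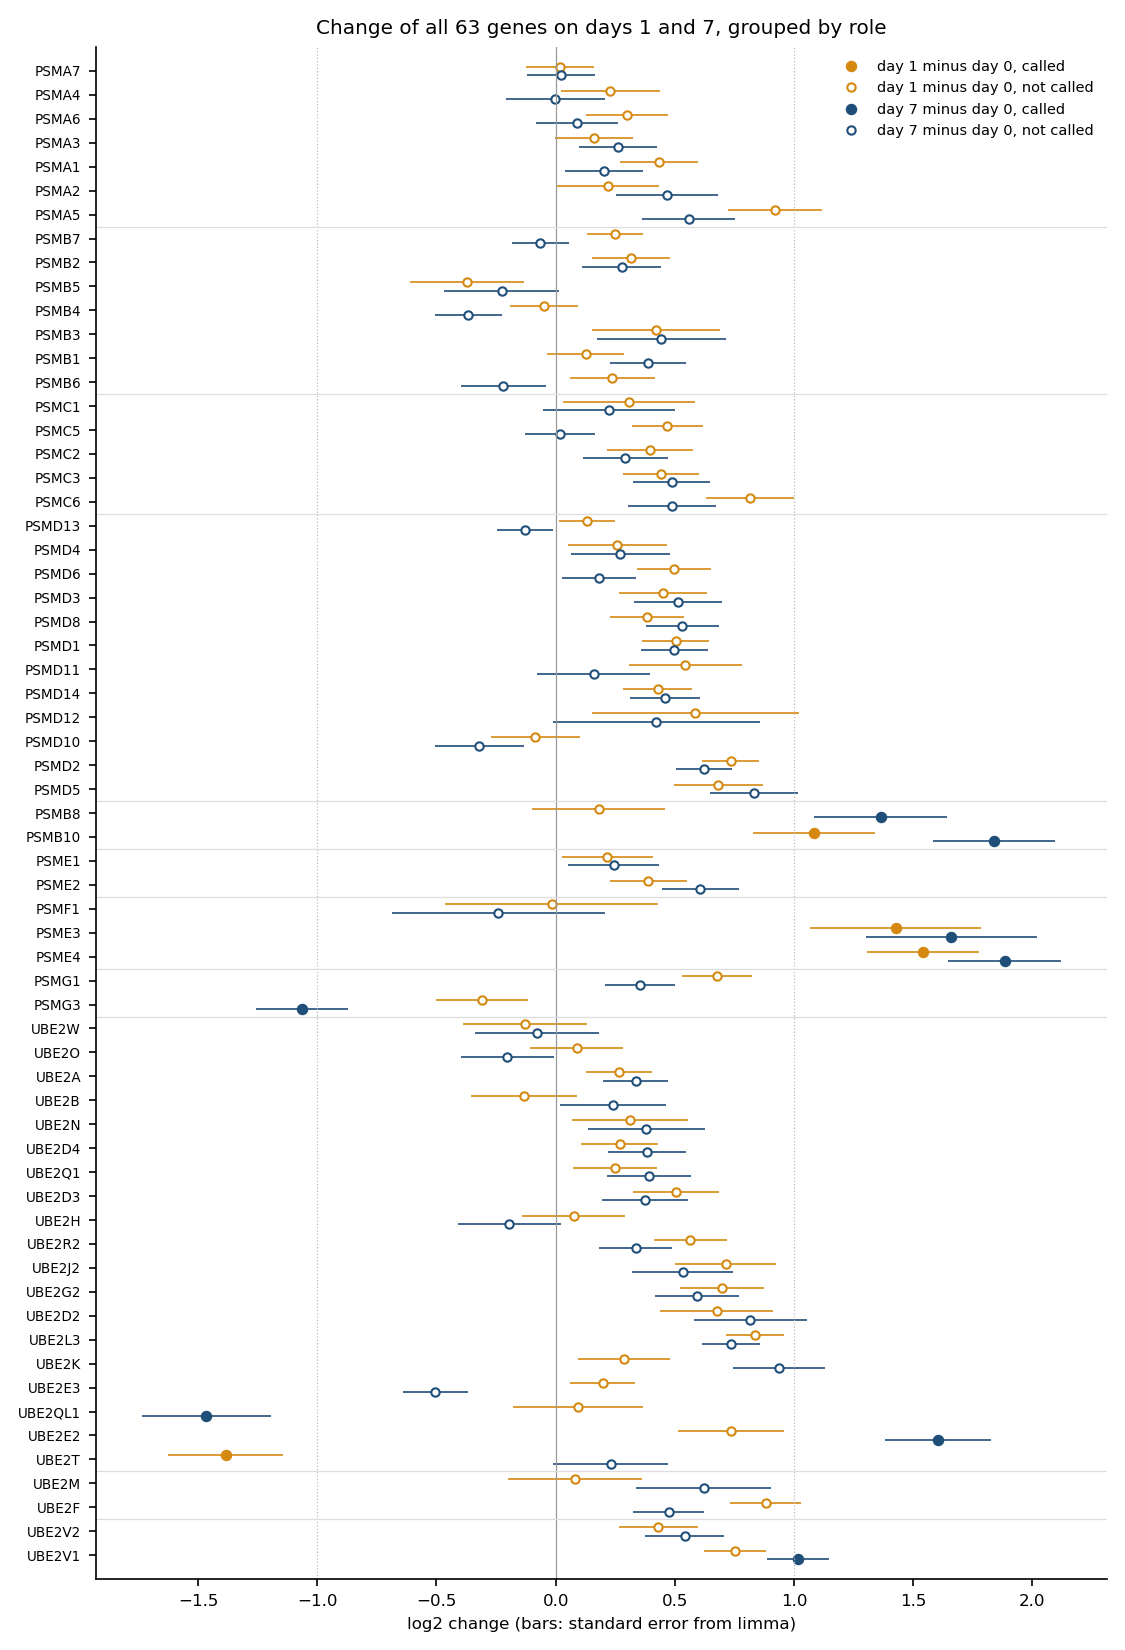
Log2 change of each of the 63 genes (one row each, grouped by role) on day 1 (orange) and day 7 (blue) against day 0, with the standard error as a bar, 3 arrays on each day. Filled points are called, and dotted lines mark a log2 change of 1 in either direction. Filled points appear in the immunoproteasome, activator, chaperone, ubiquitin-conjugating and inactive E2 variant groups. The core and cap groups hold none.

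Both measured catalytic subunits of the immunoproteasome rose. PSMB10 was called from day 1 on and PSMB8 on day 7, and the difference in timing between them was not tested. PSMB10, the immunoproteasome form of the trypsin-like subunit, read 6.16, 6.78 and 6.89 on day 0, 7.57, 7.47 and 8.04 on day 1, 7.55, 7.95 and 8.23 on day 2, 7.52, 8.35 and 8.24 on day 4, and 8.46, 8.38 and 8.51 on day 7. All 12 later arrays lay above the 3 of day 0, and the 3 of day 7 lay above all others. It rose by 1.08 ± 0.26 on day 1, 1.30 ± 0.26 on day 2, 1.43 ± 0.26 on day 4 and 1.84 ± 0.26 on day 7, which is 3.58-fold (adjusted p = 0.00623, 0.00168, 0.000697 and 7.98e-05). The day 1 call was lost without day 0 replicate 1 (0.86), without day 1 replicate 3 (0.91) and with replicates 2 and 3 only (0.92), while the later calls held under every alternative run.

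PSMB8, the immunoproteasome form of the chymotrypsin-like subunit, read 5.72, 4.78 and 5.11 on day 0, 5.55, 5.11 and 5.49 on day 1, 5.55, 4.95 and 5.41 on day 2, 5.85, 5.55 and 5.55 on day 4, and 7.16, 6.38 and 6.17 on day 7. The 3 arrays of day 7 lay above all 12 earlier ones, and days 1, 2 and 4 each overlapped day 0. The replicate 1 array was the brightest of its day on all 5 days. PSMB8 rose on day 7 by 1.36 ± 0.28, which is 2.57-fold (adjusted p = 0.00176), and the call held under every alternative that tested it, with changes of 1.07 to 1.62. Its changes on days 1, 2 and 4 were 0.18, 0.10 and 0.45 (adjusted p = 0.725, 0.847 and 0.256). PSMB9, the immunoproteasome form that replaces PSMB6, had no probe set with 1 symbol and was not analysed here.

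None of the constitutive counterparts was called on any day. PSMB5, the chymotrypsin-like subunit that PSMB8 replaces, read 11.43, 11.11 and 11.05 on day 0, 11.17, 10.51 and 10.79 on day 1, 11.44, 10.71 and 10.81 on day 2, 11.32, 10.74 and 10.77 on day 4, and 11.29, 10.78 and 10.84 on day 7. Each later day overlapped day 0, and the change on day 7 was -0.23 ± 0.24 (adjusted p = 0.528). PSMB7, the trypsin-like subunit that PSMB10 replaces, read 11.51, 11.37 and 11.34 on day 0, 11.66, 11.66 and 11.66 on day 1, 11.69, 11.35 and 11.42 on day 2, 11.49, 11.43 and 11.32 on day 4, and 11.41, 11.32 and 11.31 on day 7. Its day 1 arrays lay above day 0 and the other days overlapped it, with a change of -0.06 ± 0.12 on day 7 (adjusted p = 0.732). PSMB6, the caspase-like subunit, read 11.29, 11.19 and 11.20 on day 0, 11.51, 11.41 and 11.48 on day 1, 11.50, 10.79 and 10.91 on day 2, 11.17, 10.83 and 10.86 on day 4, and 11.23, 10.92 and 10.87 on day 7. It lay above day 0 on day 1 and below it on day 4 in all 3 arrays, without passing the adjusted p (0.397 and 0.271).

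The differences from day 0 were also set against those of the counterpart on the same arrays, where that of PSMB8 was higher than that of PSMB5 by 1.59 on day 7, and that of PSMB10 higher than that of PSMB7 by 1.90. Each difference gave a two-sided exact permutation p = 0.1, the smallest that 3 arrays against 3 allow, so the design cannot bring it under 0.05. The difference for PSMB10 was 0.84 on day 1, 1.23 on day 2 and 1.43 on day 4, each with an exact p = 0.1. For PSMB8 it was 0.55, 0.31 and 0.70 on those days, with exact p = 0.1, 0.3 and 0.1.

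**Figure D3:**
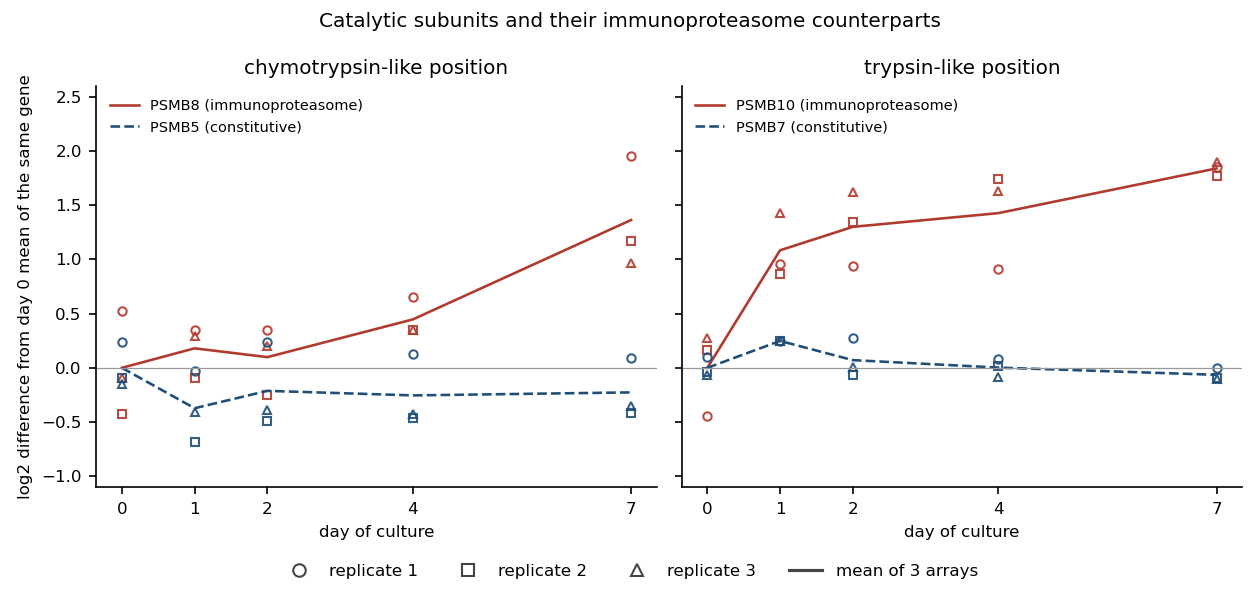
Log2 difference of every array from the day 0 mean of the same gene (vertical axis) by day of culture (horizontal axis), for PSMB8 and PSMB5 on the left and PSMB10 and PSMB7 on the right. Symbols are the 3 replicates and lines their mean. The PSMB10 points of day 1 already lie above day 0, while those of PSMB8 separate from day 0 on day 7, and the constitutive genes stay within about 0.7 of their day 0 mean.

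Genes of interferon response and antigen presentation, which share regulators with the immunoproteasome in immune cells, showed no common direction. On day 7 against day 0, 1 of 21 measured rose and 1 fell, with a list median of 0.07. SLA-3, a pig class I histocompatibility gene, rose by 1.66 ± 0.20 on day 7 (adjusted p = 1.82e-05). IFIT1, an interferon-induced gene, fell by 1.32 on day 4 (adjusted p = 0.000784). TAPBP, which loads peptides onto class I molecules, changed by -1.10 ± 0.27 on day 1 (adjusted p = 0.00813), a call lost without day 0 replicate 1 (-0.99) and without day 1 replicate 2 (-0.90). IRF1, a transcription factor that induces immunoproteasome genes, averaged 7.81 ± 0.38 on day 7, against 7.03 ± 0.12 on day 0 (SD, n = 3 each), a change of 0.78 ± 0.28 (adjusted p = 0.0496) that was under the minimum size. Over the alternative runs the limma adjusted p of IRF1 ran from 0.0137 to 0.198.

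Leukocytes carry immunoproteasomes, so their markers were read beside PSMB8 and PSMB10. Of 15 measured leukocyte markers, 1 rose and 0 fell on day 7 against day 0, and the median change was -0.02. The marker that rose was CD14, a monocyte receptor, at 6.54 ± 0.05 on day 7, against 4.87 ± 0.34 on day 0 (SD, n = 3 each), a change lost as a call when all its probe sets were averaged (0.91). PTPRC, the pan-leukocyte marker, averaged 3.75 ± 0.04 on day 7, against 3.77 ± 0.04 on day 0, below the lower quartile of every array on both days. CORO1A, another marker of the list, read 8.14, 8.17 and 8.20 on day 7, against 8.30, 7.89 and 8.27 on day 0. These values lay above the highest array median of 6.55. The summed linear intensity of the list was 648 to 700 on day 7, against 535 to 725 on day 0. Bright genes such as CORO1A weigh most in such a sum, which says little about the dim ones. Markers of theca and stromal cells moved with the days. Of 4 measured, 2 rose and 1 fell on day 7 against day 0, with a list median of 3.12, and the same 3 were called on day 4. DCN, a proteoglycan of connective tissue, averaged 11.85 ± 0.35 on day 7, against 4.63 ± 0.05 on day 0, and LUM, another such proteoglycan, 9.05 ± 0.28 on day 7, against 3.10 ± 0.22 on day 0 (SD, n = 3 each). INSL3, a hormone of theca cells, averaged 5.67 ± 0.23 on day 7, against 8.03 ± 0.35 on day 0, and CYP17A1, the androgen-forming enzyme of theca cells, 5.29 ± 0.28 on day 7, against 4.99 ± 0.19 on day 0 (adjusted p = 0.259). The summed linear intensity of this list ran between 374 and 3221 over the day 4 arrays and between 3439 and 5030 over those of day 7, against 278 and 405 for day 0. The arrays of day 1 lay between 167 and 210 and those of day 2 between 221 and 862. Of 7 endothelial markers 1 rose and 1 fell on day 7, and of 3 red blood cell markers limma called 0, with 1 at an unadjusted p under 0.05. The part of other cell types in the changes of PSMB8, PSMB10 and the other members was not tested.

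Of the alternative activators, the 2 nuclear ones rose strongly by day 1 and stayed high. PSME4, also called PA200, is a large nuclear activator linked to degradation of acetylated histones. It read 7.74, 7.66 and 7.78 on day 0, 9.48, 8.89 and 9.45 on day 1, 9.65, 8.97 and 9.08 on day 2, 9.93, 9.51 and 9.30 on day 4, and 9.99, 9.30 and 9.56 on day 7. Every later array lay more than 1 above the brightest of day 0. PSME4 rose by 1.54 ± 0.24, 1.50 ± 0.24, 1.85 ± 0.24 and 1.88 ± 0.24 on days 1, 2, 4 and 7, the last being 3.69-fold and the widest span of day means among the 63 genes (adjusted p = 0.000275, 0.000288, 3.81e-05 and 3.13e-05).

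PSME3, the nuclear activator also called PA28 gamma, read 8.19, 7.53 and 7.64 on day 0, 9.38, 9.01 and 9.25 on day 1, 10.10, 8.80 and 9.04 on day 2, 9.98, 8.60 and 9.31 on day 4, and 9.79, 9.36 and 9.18 on day 7. All 12 later arrays lay above day 0, and replicate 1 was the brightest array of each day. It rose by 1.43 ± 0.36, 1.53 ± 0.36, 1.51 ± 0.36 and 1.66 ± 0.36 on days 1, 2, 4 and 7, the last being 3.16-fold (adjusted p = 0.00932, 0.00585, 0.00541 and 0.00271). The calls of PSME3 and PSME4 held under every alternative run, with changes of at least 1.13 for PSME3 and 1.30 for PSME4.

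PSME1 and PSME2 form the cytoplasmic activator PA28 alpha-beta, which acts with the immunoproteasome, and neither was called. PSME2 read 10.46, 10.27 and 10.35 on day 7, against 10.13, 9.53 and 9.60 on day 0, with no overlap and a change of 0.61 ± 0.16 (adjusted p = 0.0103). The difference of PSME1 was 0.24 ± 0.19 on day 7 (adjusted p = 0.374). PSMF1, an inhibitor of the proteasome in vitro, had a difference of -0.24 ± 0.45 on day 7 (adjusted p = 0.736), and read 8.42, 6.30 and 7.85 on day 4, with the lowest value on the array whose actin control difference was 2.12. Its second probe set changed by -0.48 on day 7 (adjusted p = 0.0084).

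The 2 measured assembly chaperones of the core, which pair the alpha subunits into a ring, differed. PSMG3 read 8.84, 9.33 and 9.40 on day 0, 8.65, 9.01 and 8.98 on day 1, 7.92, 8.07 and 8.14 on day 2, 7.87, 8.16 and 8.25 on day 4, and 7.76, 8.28 and 8.33 on day 7. Day 1 overlapped day 0, and the 9 arrays of days 2, 4 and 7 lay below all of days 0 and 1. PSMG3 fell by 1.14, 1.09 and 1.07 on days 2, 4 and 7 (SE 0.19 each, adjusted p = 0.000501, 0.000595 and 0.000704). The change lay close to the minimum size, and the day 4 call was lost without day 0 replicate 3 (-0.99) or day 4 replicate 1 (-0.98), the day 7 call without replicate 2 (-0.997) or replicate 3 (-0.96) of day 0, or replicate 1 of day 7 (-0.88). PSMG1, in contrast, changed by 0.68 ± 0.15 on day 1 (adjusted p = 0.0036) with a difference of 0.35 ± 0.15 on day 7 (adjusted p = 0.0873).

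Among the 23 genes of the UBE2 family, 5 had a called time course, which is 21.7%, near the 23.6% of all probe sets. On day 7 against day 0, 2 rose, 1 fell and 20 were not called, with a family median of 0.38. The 3 called are 13% of the family, where 16.6% of all probe sets were called. UBE2E2, an E2 enzyme with a long amino-terminal extension, read 6.70, 7.67 and 7.70 on day 0, 7.98, 8.22 and 8.07 on day 1, 8.55, 8.70 and 8.60 on day 2, 8.57, 8.99 and 9.04 on day 4, and 8.98, 9.003 and 8.90 on day 7. All later arrays lay above day 0, all of day 2 above day 1, and replicate 1 of day 0 was almost 1 below the other arrays of that day. UBE2E2 rose by 1.26 ± 0.22 on day 2, 1.51 ± 0.22 on day 4 and 1.61 ± 0.22 on day 7, the last being 3.04-fold (adjusted p = 0.000762, 0.000141 and 8.14e-05). The day 2 call was lost without day 0 replicate 1 (0.93) and with replicates 2 and 3 only (0.97).

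UBE2E3, its close relative, followed another course. It read 11.57, 12.02 and 11.81 on day 0, 12.12, 12.04 and 11.83 on day 1, 12.29, 12.37 and 12.29 on day 2, 11.51, 11.56 and 11.76 on day 4, and 11.21, 11.37 and 11.30 on day 7. Day 2 lay above every other day and day 7 below every other day. Its F test was called (adjusted p = 0.000431, span 1.02), while its change was 0.52 ± 0.14 on day 2 and -0.51 ± 0.14 on day 7 against day 0 (adjusted p = 0.0119 and 0.0117), and -0.71 ± 0.14 on day 4 against day 2 (adjusted p = 0.00909). Its other 2 probe sets changed by -0.94 and -0.68 on day 7. On day 4 against day 2 they changed by -1.14 and -0.85 (adjusted p = 0.00141 and 0.0039), so the first was called at that step.

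UBE2V1 is an E2 variant without a catalytic cysteine that works bound to UBE2N to build ubiquitin chains used in signalling. It read 10.58, 10.33 and 10.29 on day 0, 11.33, 11.02 and 11.11 on day 1, 11.31, 11.18 and 11.29 on day 2, 11.58, 11.74 and 11.47 on day 4, and 11.47, 11.40 and 11.39 on day 7. All later arrays lay above day 0, and it rose by 1.20 ± 0.13 on day 4 and 1.02 ± 0.13 on day 7 (adjusted p = 8.13e-06 and 3.47e-05). The size lay near the minimum. After a second quantile normalization it was 0.98 on day 4 and 0.80 on day 7, as the mean of all its probe sets 0.72 and 0.75, and the day 7 call was also lost with arrays shifted to the same median (0.98) and without replicate 2 (0.98) or replicate 3 (0.96) of day 0, or replicate 1 of day 7 (0.99). Its other 2 probe sets had differences of 0.83 and 0.41 on day 7 (adjusted p = 0.188 and 0.271). The other variant, UBE2V2, changed by 0.54 ± 0.17 on day 7 (adjusted p = 0.0231), and the shared partner UBE2N had a difference of 0.38 ± 0.24 (adjusted p = 0.271).

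UBE2QL1, a member of the UBE2Q branch, fell after day 1. It read 8.39, 8.15 and 7.43 on day 0, 8.16, 8.11 and 7.97 on day 1, 6.503, 6.90 and 7.13 on day 2, 6.48, 7.06 and 6.91 on day 4, and 6.003, 6.86 and 6.71 on day 7. The day 1 arrays lay within the range of day 0, and the 9 arrays from day 2 on lay below all 6 of days 0 and 1. It fell by 1.15, 1.17 and 1.47 on days 2, 4 and 7 against day 0 (SE 0.27 each, adjusted p = 0.00619, 0.00454 and 0.000879) and by 1.24 on day 2 against day 1 (adjusted p = 0.0159).

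Several UBE2QL1 calls were lost in alternatives. The day 2 call was lost without day 0 replicate 1 (-0.95), without day 2 replicate 1 (-0.97) and with replicates 2 and 3 only (-0.78), and the day 4 call without day 0 replicate 1 (-0.98) and with replicates 2 and 3 only (-0.81). The step on day 2 against day 1 was as large without replicate 2 of day 1 (-1.22) or of day 2 (-1.27) but missed the adjusted p there (0.0594 and 0.0544, the first being the largest over all alternatives). The day 7 call held under every alternative run.

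UBE2T dipped and returned. It is the E2 enzyme of the Fanconi anaemia pathway, which repairs DNA crosslinks during replication. It read 8.43, 8.81 and 8.69 on day 0, 6.82, 7.43 and 7.54 on day 1, 7.35, 7.65 and 7.84 on day 2, 9.24, 8.28 and 8.89 on day 4, and 8.90, 8.96 and 8.76 on day 7. The arrays of days 1 and 2 lay below all others, and days 4 and 7 overlapped day 0. UBE2T fell by 1.38 on day 1 and by 1.03 on day 2 against day 0 (SE 0.24 each, adjusted p = 0.00074 and 0.00563), and rose by 1.19 ± 0.24 on day 4 against day 2 (adjusted p = 0.0124). On day 7 its change against day 0 was 0.23 ± 0.24 (adjusted p = 0.52).

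The day 1 fall of UBE2T held under every alternative run, and its second probe set was also called on that day (-1.01, adjusted p = 0.0189). The day 2 fall was lost as the mean of both probe sets (-0.93), without day 0 replicate 2 (-0.95) and without day 2 replicate 1 (-0.90). The rise on day 4 against day 2 was lost as the mean of both probe sets (0.92), without day 4 replicate 1 (0.97), with replicates 2 and 3 only (0.84), and with only the 6 arrays compared, where the adjusted p was 0.0952, the largest over all alternatives (the smallest was 0.00323).

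Genes of DNA replication and mitosis also fell on days 1 and 2. Of 21 measured, 17 fell on day 1 against day 0, 17 fell on day 2 against day 0, and 15 rose on day 4 against day 2. On day 4 against day 0 the list held 4 called lower, with a median of -0.51, and on day 7 it held 5, with a median of -0.66, while UBE2T had differences of 0.16 and 0.23 and was not called. TOP2A, the topoisomerase of dividing cells, averaged 8.93 ± 0.19 on day 1, against 11.52 ± 0.32 on day 0 (SD, n = 3 each), a change of -2.58 ± 0.31 (SE, adjusted p = 3.9e-05). PCNA, the replication clamp, fell by 2.10 on day 1 (adjusted p = 7.48e-06) and rose by 1.41 ± 0.21 on day 4 against day 2 (adjusted p = 0.00139), a call lost with only the 6 arrays compared (adjusted p = 0.0578).

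**Figure D4:**
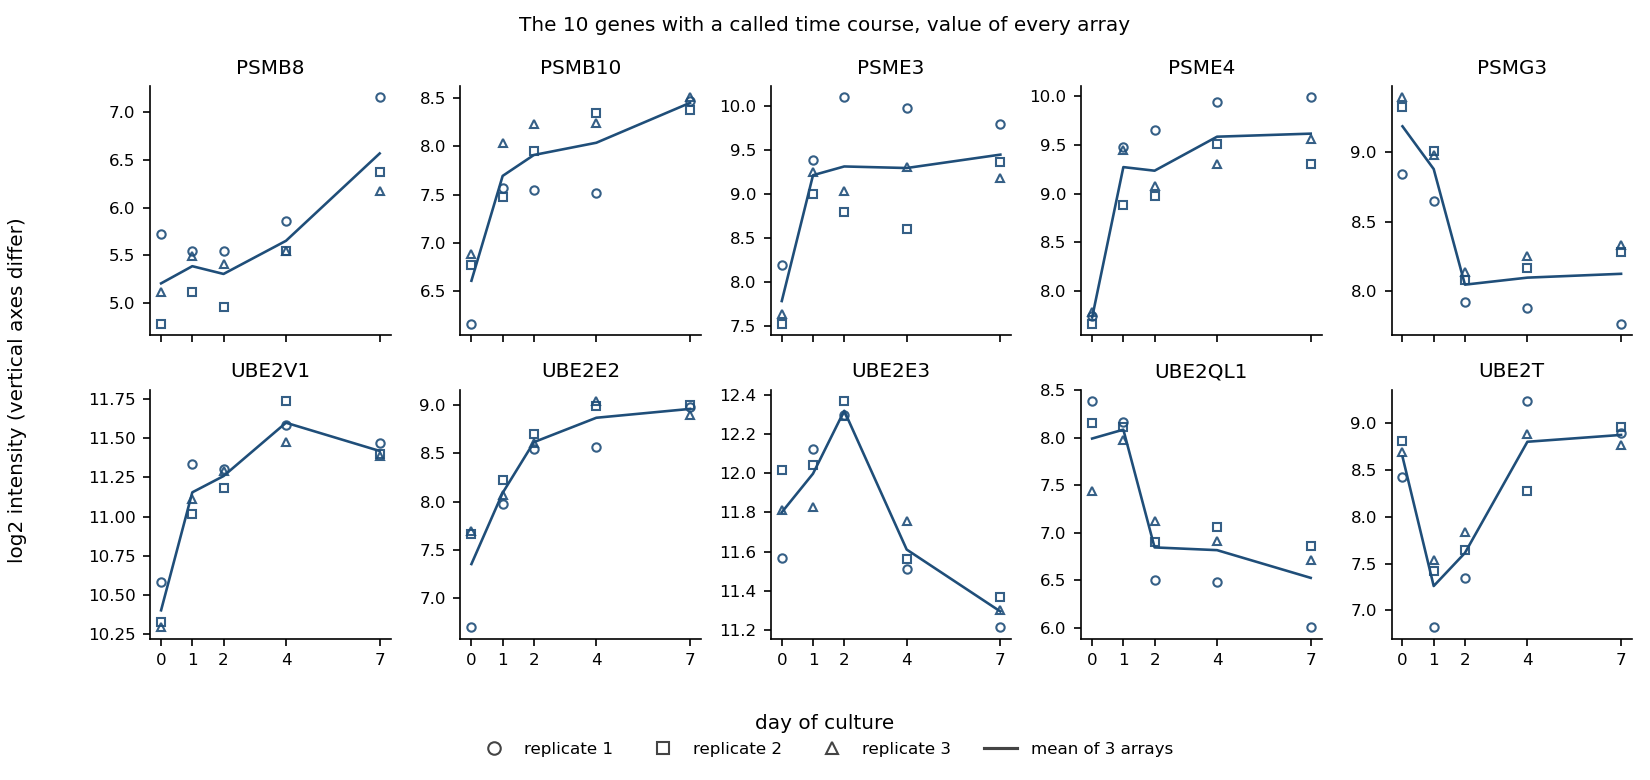
Log2 intensity of every array (vertical axis, with a scale of its own in each panel) by day of culture (horizontal axis) for the 10 genes with a called time course. Symbols are the 3 replicates and lines their mean. PSME3, PSME4 and UBE2V1 are high from day 1 on, PSMB8 rises on day 7, PSMG3 and UBE2QL1 are low from day 2 on, UBE2E3 peaks on day 2, and UBE2T dips on days 1 and 2.

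With no minimum size and the called genes included, 7 genes of the family were higher and 1 lower by the adjusted p alone on day 1. The counts were 9 and 2 on day 2, 12 and 1 on day 4, and 8 and 2 on day 7. Of all probe sets, 13.6% and 11.4%, 14.6% and 11.5%, 16.7% and 14%, and 16.4% and 14.9% were higher and lower on those days. UBE2L3, which serves ligases of the HECT and RING-between-RING types, passed on all 4 days and changed by 0.84 ± 0.12 on day 1 and 0.73 ± 0.12 on day 7 (adjusted p = 0.000176 and 0.000341). Its second probe set, however, changed by -0.58 on day 7 (adjusted p = 0.014), so the direction of UBE2L3 depends on the probe set. UBE2K, which builds ubiquitin chains without help, read 9.99, 9.90 and 9.70 on day 7, against 9.11, 8.99 and 8.69 on day 0, a change of 0.94 ± 0.19 (adjusted p = 0.002). It reached the minimum size without day 0 replicate 1 (1.03) and without day 7 replicate 3 (1.02).

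UBE2G2, an E2 enzyme of protein degradation at the endoplasmic reticulum, passed on all 4 days, with 0.80 ± 0.18 on day 4 (adjusted p = 0.00325), and also on all 4 after the second quantile normalization (0.51 to 0.67). UBE2F carries the ubiquitin-like protein NEDD8 rather than ubiquitin. It changed by 0.88 ± 0.15 on day 1 (adjusted p = 0.000587) and by 0.47 ± 0.15 on day 7 (adjusted p = 0.0261), reaching 1.02 on day 1 without day 0 replicate 2. UBE2M, the other NEDD8 enzyme, had a difference of 0.62 ± 0.28 on day 7 (adjusted p = 0.118). UBE2D2, an E2 enzyme used by many ligases, changed by 0.82 ± 0.24 on day 7 (adjusted p = 0.017). The dimmest of its 3 probe sets was called on day 1 (1.02), when the chosen one had a difference of 0.68 (adjusted p = 0.052).

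UBE2A and UBE2B, UBE2D2, UBE2D3 and UBE2D4, UBE2E2 and UBE2E3, and UBE2V1 and UBE2V2 are close paralogs whose probes may read each other, and how their probe sets share signal is uncertain. The chosen probe sets of UBE2D3 and UBE2E3 are of a design that can bind more than 1 transcript.

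Upstream of these enzymes, limma called 0 of 2 measured ubiquitin precursor genes and 0 of 6 E1 enzymes in every comparison with day 0. By the adjusted p alone, 1 E1 enzyme was higher on each of days 1, 2, 4 and 7, and 1 was lower on day 1. By that rule 25.1% to 31.3% of all probe sets passed. An unadjusted p under 0.05 was found for 0 of the 2 precursors and up to 3 of the 6 E1 enzymes. UBB, which encodes polyubiquitin, read 13.95, 14.05 and 14.00 on day 7, against 13.98, 14.29 and 14.07 on day 0, a change of -0.11 ± 0.11 (adjusted p = 0.495). Of 6 proteasome factors outside the symbol rule, 0 were called by limma against day 0 and 1 to 4 had an unadjusted p under 0.05. The largest change there was that of SEM1, a small subunit of the cap, at 0.93 ± 0.13 on day 4 (adjusted p = 8.63e-05). UBA1, POMP, NFE2L1 and NFE2L2 had no probe set with 1 symbol and were not analysed here. The list drawn up as regulators of proteasome genes held 2 measured genes, STAT3 and TCF7L1. STAT3 rose by 1.35 ± 0.26 on day 2 (adjusted p = 0.00135). TCF7L1, a transcription factor of the Wnt pathway, rose by 3.51 ± 0.34 on day 7 (adjusted p = 2.78e-06) and is not read here as a regulator of proteasome genes.

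Downstream, single ligases and delivery factors were called, while most genes of each list were not. By the adjusted p alone, 4 of 18 genes of cullin ligases were higher and 1 lower on day 2 against day 0. Of 18 HECT, RING and U-box ligases, 2 were higher and 2 lower by that rule on day 4. Of all probe sets, 14.6% were higher and 11.5% lower on day 2, and 16.7% and 14% on day 4. Of 18 measured genes of cullin ligases, 2 rose and 0 fell on day 2 against day 0. They were FBXO32, the muscle ligase atrogin-1, by 2.75 ± 0.38 (adjusted p = 9.13e-05), and FBXO7 by 1.48 ± 0.26 (adjusted p = 0.000728). Of 18 HECT, RING and U-box ligases, 0 rose and 1 fell on day 7. That one was RNF128, at 8.37 ± 0.17 on day 7, against 9.85 ± 0.31 on day 0 (SD, n = 3 each; adjusted p = 2.5e-05). WWP2, a HECT ligase, was the 1 that rose on day 1, by 1.37 ± 0.31 (adjusted p = 0.00524). CBLB, called lower on day 4 (-1.02, adjusted p = 0.0406), lost its call without any 1 of the 3 day 0 arrays, day 4 replicate 2 or 3, or day 2 replicate 2 (-1.07 to -0.91, adjusted p = 0.0517 to 0.123).

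Of 19 deubiquitinating enzymes, 1 rose on day 2, UCHL3, by 1.39 ± 0.16 (adjusted p = 1.74e-05). Of 10 substrate delivery factors, 2 rose on day 1 and 1 on day 2. By the adjusted p alone, 6 of the 10 were higher and 0 lower on day 2 against day 0. Of all probe sets, 14.6% were higher and 11.5% lower by that rule. BAG1, which links the chaperone HSP70 to the proteasome, rose by 1.27 ± 0.12 on day 2 (adjusted p = 3.86e-06). SQSTM1, an autophagy receptor for ubiquitinated proteins, changed by 1.05 ± 0.25 on day 1 (adjusted p = 0.00748), but by 0.66 without day 1 replicate 1, 0.98 without day 0 replicate 1, 0.59 with replicates 2 and 3 only and 0.93 after the second quantile normalization, and with only the 6 arrays compared its adjusted p was 0.0533. Of 10 genes of the anaphase-promoting complex, the ligase that drives exit from mitosis, 2 fell on each of days 1, 2, 4 and 7 against day 0. CDC20, its activator in mitosis, averaged 7.02 ± 0.22 on day 2, against 10.12 ± 0.32 on day 0 (SD, n = 3 each; adjusted p = 9.83e-07). ANAPC4, a scaffold subunit, fell by 1.77 on day 1 (adjusted p = 3.21e-06).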

How the data were processed

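The 15 arrays hold biotin-labelled target of total RNA, made with a kit that amplifies from the 3′ end, per the labels' protocols. The deposited values are log2 intensities per probe set that the authors made with RMA (background correction, quantile normalization and a summary over probes), a tool named without version in the submitters' processing notes; they lie between 2.29 and 14.9. No reads or detection calls were used, and no source used here names a genome build, so no positions or sequences are printed. Of 24123 probe sets, 124 controls served as quality measures only. Of the 23999 tested, 10069 had 1 symbol, 198 several and 13732 none. The 63 members had 84 probe sets, and 15 members had more than 1.

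One limma model (version 3.58.1, R 4.3.3; lmFit and eBayes) held day as a factor over the 15 arrays, with Benjamini-Hochberg adjustment over all 23999 probe sets. A call needed an adjusted p under 0.05 and a log2 change of at least 1; the fit was tested on simulated data. The members and all lists were chosen with earlier results of these data known. Every array is printed for members called against day 0 or by the F test, the latter added after their values were seen, and for the catalytic subunits. Up to 4 called genes of each other list, and genes fixed by name, could be named. Arrays of one day correlated at 0.963 to 0.996, and 0 of 105 pairs of arrays held identical values.

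Same-numbered arrays deviated together from their day means with a correlation of 0.115 to 0.727 in 6 comparisons, and of 0.0609 to 0.333 on day 1 against day 0. Nothing in the labels says that numbers pair arrays, so the main results use no block, and blocked counts stand beside those they move. Alternatives were quantile normalization applied once more, a median shift of each array, a fit without the 40% of probe sets of lowest mean, eBayes with trend and robust, a replicate block, no minimum change, a fit to the 6 arrays of a comparison alone, a gene's probe sets averaged, replicates 2 and 3 only, and each array left out in turn.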

Additional observations from a re-analysis of the deposited data

How the results depend on the processing

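No call of a member turned its direction under any alternative. Without a minimum change the counts of called members were 20, 22, 27 and 24 on days 1, 2, 4 and 7 against day 0, 2 on day 2 against day 1, 2 on day 4 against day 2, and 23 by the F test. Leaving out 1 array in turn gave 3 to 5, 5 to 8, 6 to 8 and 6 to 9 on days 1, 2, 4 and 7 against day 0, 0 to 1 on day 2 against day 1, 0 to 1 on day 4 against day 2, 0 on day 7 against day 4, and 9 to 11 by the F test. The count on day 4 against day 2 was also 0 with the mean of all probe sets, with only the 6 arrays compared and with replicates 2 and 3 only, with UBE2T the gene lost. The gene lost on day 2 against day 1 was UBE2QL1. With the replicate number as a block, the counts were 4, 7, 7 and 8 against day 0, 1, 1 and 0 between neighbouring days and 10 by the F test, and no call of a named member or list gene was lost; the block moved the counts by the adjusted p alone, given above. PSMA5 reached a log2 change of 1 on day 1 or day 2 in 3 alternatives (1.01 to 1.03). The causes of these shifts were not tested. PSMB8, the dimmest member, is the one left out with the dimmest 40% of probe sets. Its mean lies below the array medians, and no detection call was used to set it against background.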
